A study of Mus musculus with 6 samples.

Results

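The mitochondrial transport and dynamics genes described here are 10 genes of the machinery that moves, fuses and divides mitochondria, among the 22180 genes that had a row of their own on the array. They are the Miro genes Rhot1 and Rhot2, the motor adaptors Trak1 and Trak2, the fusion genes Mfn1, Mfn2 and Opa1, and the fission genes Dnm1l, Fis1 and Mff. The set was put together by function, and it was chosen because Rhot2 read lower in the knockout, so the difference between genotypes is given for these genes as a description with no test. Each of the 10 had 1 row on the array, and all 10 had a mean signal above the median of all genes, 6.77 on the log2 scale, which was the level required for testing.

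The samples were haematopoietic stem cells (HSCs) sorted from mouse bone marrow at steady state, without treatment, as lineage-negative cells that carry Sca1 and Kit and lack Flt3. The Chrm1-/- group, 3 arrays, came from mice lacking the muscarinic acetylcholine receptor gene Chrm1, and the WT group, 3 arrays, from wild type mice. The strain is given as C57Bl/6 for both, and the sources used here give neither the age of the mice nor the part of Chrm1 that was deleted. The labels do not say whether the replicates are separate animals, so errors and p-values reflect only how these samples vary, and that variation may be technical.

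Miro proteins are GTPases of the outer mitochondrial membrane. They bind the Trak adaptors, which in turn hold kinesin and dynein motors, so that a mitochondrion can travel along microtubules. Mitofusins tether and fuse outer membranes, Opa1 fuses inner membranes and shapes cristae, and the dynamin Dnm1l (Drp1), recruited by receptors such as Mff, constricts and divides the organelle. In HSCs, mitofusin 2 is known for its role in cells with lymphoid potential, and the inheritance and turnover of mitochondria are linked to self-renewal.

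The array medians lay between 6.49 and 6.57. Each array had a mean Pearson correlation with its own genotype between 0.918 and 0.926 over all rows, and with the other genotype between 0.922 and 0.929; WT replicate 3 was lowest in both. The HSC marker list had 9 of 9 measured genes above the signal level for testing, while 1 of 7 T and NK cell markers and 2 of 7 B cell markers were above it. Of the other lists, 6 of 6 erythroid, 5 of 7 megakaryocyte and 5 of 10 granulocyte precursor markers were above it. So were 4 of 7 monocyte and macrophage markers and 4 of 8 stroma and endothelium markers. Chrm1 had 2 rows on the array, and values are given only for the row of higher mean. That row read 8.16, 7.52 and 7.58 in Chrm1-/-, against 7.45, 7.44 and 7.67 in WT, so its level does not tell the genotypes apart. Which part of the gene its probes cover is not given. In limma, fitted to 11094 genes, 0 genes (0%) were past the adjusted threshold of 0.05, and 332 (2.99%) had an unadjusted p below 0.05. The smallest adjusted p was 0.926. In sorted cells measured in bulk, fewer cells of a type and less RNA per cell cannot be told apart.

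Rhot2, which encodes Miro2, was the member with the largest difference between the genotypes. Its signal was 7.32, 7.58 and 7.82 on the Chrm1-/- arrays, against 8.20, 8.28 and 8.24 on the WT arrays. The groups did not overlap, the WT arrays lay within 0.08 of each other, and the Chrm1-/- arrays spread over 0.50, all below WT. The difference, Chrm1-/- minus WT, was -0.67 ± 0.15 on the log2 scale (SE, n = 3 each), a signal 1.59-fold lower in Chrm1-/-. In size it was exceeded by 2.9% of all tested genes, and 2.24% of tested genes were at least 1.5-fold lower in Chrm1-/-. With 1 array left out it lay between -0.79 and -0.54, given as a range only, since groups that do not overlap keep their direction without any 1 array.

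Of the 8 marker lists, the mean of 1 did not overlap between the genotypes. The mean log2 signal of 8 stroma and endothelium markers was 6.96, 6.96 and 7.01 in Chrm1-/-, against 6.90, 6.92 and 6.86 in WT, without overlap. Its genes did not move together: 6 had higher and 2 lower means in Chrm1-/-, with differences from -0.15 for the endothelial gene Cdh5 to 0.38 for Pdgfrb, whose groups overlapped. Of the 8, 4 were above the signal level for testing, and the 1 gene without overlap was the stromal gene Lepr, below that level at 4.64 to 4.84 on all arrays.

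The means of the other 7 lists overlapped between the genotypes, but single markers in them did not. Of the 36 markers above the signal level in all 8 lists, 3 did not overlap, against 5.79% of all tested genes. All 3 belong to the other 7 lists, and they are named after their values were seen. Procr, an HSC surface receptor, read 8.16, 8.19 and 8.24 in Chrm1-/-, against 8.40, 8.45 and 8.50 in WT, a difference of -0.25 ± 0.10 (SE, n = 3 each). Cd68, a macrophage marker, read 8.47, 8.16 and 8.19 in Chrm1-/-, against 8.79, 9 and 10.25 in WT, a difference of -1.07 ± 0.39 (SE, n = 3 each). F2rl2, a protease-activated receptor gene of the megakaryocyte list, read 8.98, 8.65 and 7.57 in Chrm1-/-, against 7.16, 7.45 and 7.21 in WT, a difference of 1.13 ± 0.36 (SE, n = 3 each). The groups of all other measured genes in the lists of Procr, Cd68 and F2rl2 overlapped, and some went the other way. In the HSC list Fgd5 differed by 0.38, Cd34 by 0.06, Mllt3 by 0.03 and Hlf by 0.02. Kit differed by -0.02, Tek by -0.12, Mecom by -0.17 and Slamf1 by -0.38. In the monocyte and macrophage list Ly86 differed by 0.51, Irf8 by 0.33 and Lyz2 by -0.05. In the megakaryocyte list Pf4 differed by -0.88 and Vwf by 0.00. Procr, Cd68 and F2rl2 were picked because their groups do not overlap, so sharing the split of arrays with Rhot2 follows from the pick. Within Chrm1-/-, replicate 1 had the lowest Rhot2 and Procr values and the highest Cd68 and F2rl2 values. The HSC list mean was 9.03, 9.10 and 9.28 in Chrm1-/-, against 9.26, 9.14 and 9.16 in WT. Replicate 1 was the highest Chrm1-/- array in the erythroid, granulocyte precursor, monocyte and macrophage, B cell, and T and NK cell list means. It was not the highest in the megakaryocyte and stroma and endothelium means. The part of other cells in the values of Rhot2, and of Dnm1l described further on, was not tested.

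The bases just before the Rhot2 start are shown because they are all of the stretch between this gene and its upstream neighbour Wdr90, whose signal is given further on. They are 208 bases in GRCm38.p6 at chr17:25844526-25844733, read 5′ to 3′ on the minus strand, which is the strand of Rhot2, from the RefSeq promoter table. Capitals mark GC boxes and an ETS core.

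Rhot2 upstream: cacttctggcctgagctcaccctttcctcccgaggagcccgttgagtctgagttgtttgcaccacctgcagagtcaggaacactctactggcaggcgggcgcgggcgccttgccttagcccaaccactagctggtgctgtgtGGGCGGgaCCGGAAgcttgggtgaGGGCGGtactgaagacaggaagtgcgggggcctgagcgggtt

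Letters were searched on both strands as GGGCGG for the GC box, CCGGAA for the ETS core and TATAAA for the TATA box, and the marked matches do not overlap. The Rhot2 stretch held 2 GC boxes and 1 ETS core and 0 TATA boxes. A GC box stood in the corresponding 208 bases of 10 of the 10 members, counting any listed start of a gene, and in 31.4% of the 32851 such windows of the table. The ETS core stood in those of Rhot2, Mfn1 and Fis1, against 10.9% of windows. The TATA letters stood in 0 members and in 10.4% of windows. Since 5 members had several listed starts, a count of members is not the same measure as a share of single windows. The windows are those of the whole table, whatever the signal of the gene, so no enrichment is read from these counts. These are matches of letters, not measured binding.

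Rhot1, which encodes the other Miro protein, did not separate the genotypes. It read 9.24, 8.01 and 8.42 on the Chrm1-/- arrays, against 8.73, 8.32 and 9.15 on the WT arrays. The highest and the lowest of the 6 values were both Chrm1-/-, so the WT range lay inside that of the knockout. The difference of -0.18 ± 0.36 (SE, n = 3 each) was smaller than its error, and without Chrm1-/- replicate 2 it was 0.10 and without WT replicate 3 it was 0.03, so its sign rested on single arrays. Rhot1 was among the more variable genes: its SD between arrays of a genotype, pooled over both, was 0.53, above that of 90.6% of tested genes. For Rhot2 this SD was 0.18, above that of 38.2%. The spread enters the error of each difference, and whether it differs between the Miro genes was not tested.

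Trak1 and Trak2 link Miro to the motors, and both had lower mean signals in Chrm1-/- with overlapping groups. Trak1 read 7.45, 7.24 and 7.61 in Chrm1-/-, against 7.60, 7.58 and 7.82 in WT. The overlap was a matter of 0.03, since the highest Chrm1-/- array lay above 2 of the WT arrays, and the difference was -0.23 ± 0.14 (SE, n = 3 each). Trak2 read 7.96, 7.37 and 7.53 in Chrm1-/-, against 7.68, 7.68 and 8.23 in WT. Its difference was -0.24 ± 0.22 (SE, n = 3 each), and -0.06 without WT replicate 3, the array on which it was highest.

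Rhot1 and Trak2 were both highest on the same pair of arrays, Chrm1-/- replicate 1 and WT replicate 3, a pattern that runs across the genotypes. Of all tested genes, 7.62% were highest on that pair. The pattern was noticed in these values and then counted in the marker lists. Of 7 measured B cell markers 3 (Cd79a, Cd79b and Ebf1) and of 7 monocyte and macrophage markers 3 (Csf1r, Adgre1 and Cd14) had their 2 highest values on these arrays. Of these 6 genes, 5 (all but Cd79b) were below the signal level for testing, where 16.6% of all genes were highest on the pair. Some margins were small, as for Ebf1, at 6.35 and 6.33 on the pair and 6.31 on WT replicate 1. Those of the granulocyte precursor list were 2 of 10, of the T and NK cell list 1 of 7, of the megakaryocyte list 1 of 7, and of the erythroid, stromal and HSC lists 0 of 6, 0 of 8 and 0 of 9. The mean log2 signal of the B cell list was 6.61 on Chrm1-/- replicate 1 and 6.41 and 6.43 on the other Chrm1-/- arrays. It was 6.74 on WT replicate 3 and 6.36 and 6.34 on the other WT arrays. The genes of this list did not move together. Cd79a read 7.25 and 7.77 on the pair and 6.05 to 6.40 on the other arrays, while Igll1 had its lowest value, 6.05, on Chrm1-/- replicate 1. The part of such cells in the Rhot1 and Trak2 values was not tested. Rhot2 did not share this pattern, with its lowest value on Chrm1-/- replicate 1.

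**Figure D1:**
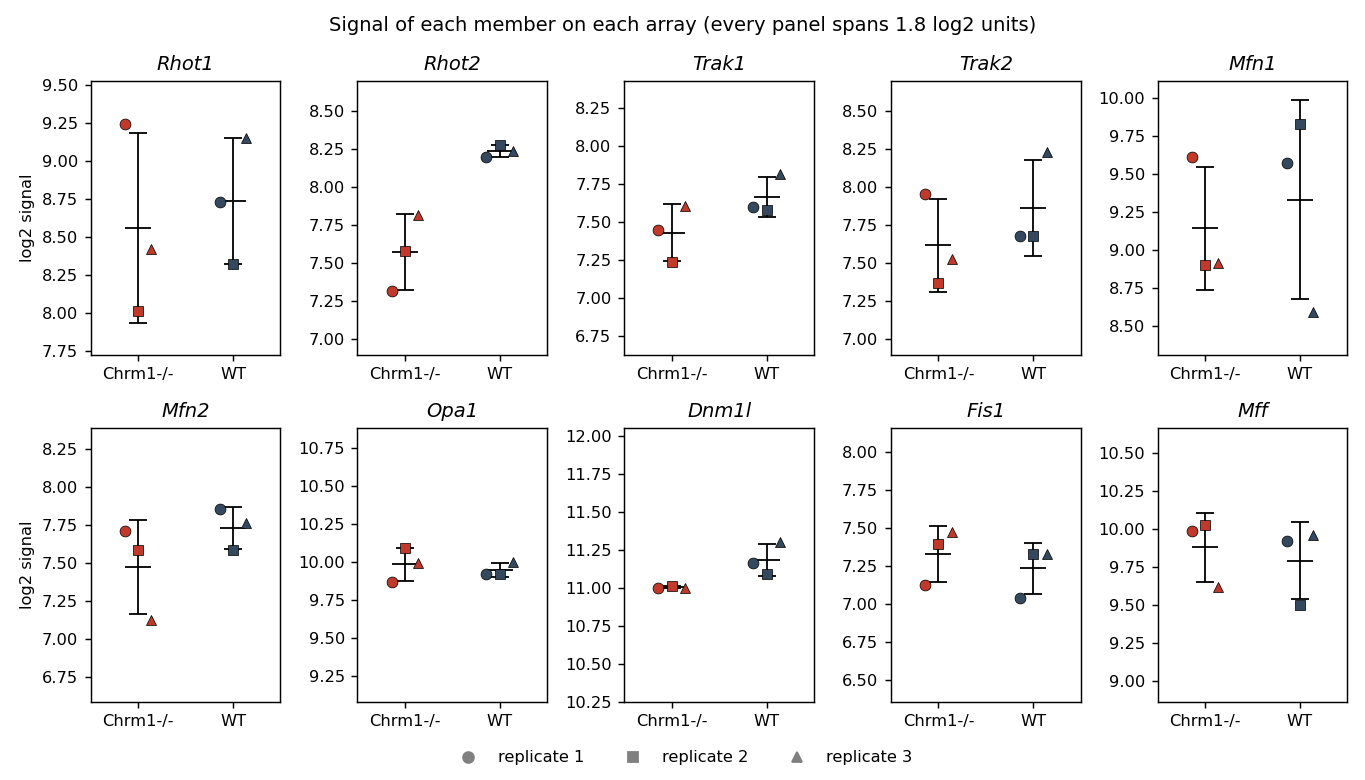
Log2 signal (vertical axis) of each of the 10 members on the 3 Chrm1-/- arrays (red, left) and the 3 WT arrays (dark, right), with marker shapes for the replicate number and bars for the mean ± SD; every panel spans the same width of scale. Rhot2 and Dnm1l are the members whose groups do not overlap, and Rhot1 and Mfn1 spread most.

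Of the fusion genes, the mitofusins had lower means in Chrm1-/- and Opa1 was nearly level. Mfn1, an outer membrane mitofusin, read 9.61, 8.90 and 8.91 in Chrm1-/-, against 9.57, 9.83 and 8.59 in WT. The lowest value of all was WT replicate 3, and without it the difference was -0.56, against -0.19 ± 0.37 (SE, n = 3 each) with all arrays; without WT replicate 2 it was 0.06. With a pooled SD of 0.54, above that of 91.0% of tested genes, Mfn1 was the member with the widest spread. Mfn2, the related mitofusin that also tethers mitochondria to the endoplasmic reticulum, read 7.71, 7.58 and 7.12 in Chrm1-/-, against 7.85, 7.58 and 7.76 in WT. One Chrm1-/- array stood low and another equalled the lowest WT array. The difference was -0.26 ± 0.18 (SE, n = 3 each), the second in size among the members, and -0.08 without Chrm1-/- replicate 3.

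Opa1, the inner membrane fusion dynamin, read 9.87, 10.09 and 9.99 in Chrm1-/-, against 9.92, 9.92 and 10 in WT. All 6 values lay close together, and the difference was 0.04 ± 0.11 (SE, n = 3 each). The pooled SD of Opa1, 0.08, was above that of 9.2% of tested genes, which placed it with Dnm1l (7.4%) among the steadier genes.

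Of the fission genes, Dnm1l separated the genotypes by a small margin. Dnm1l encodes the dynamin-related GTPase that divides mitochondria, and it read 11.00, 11.01 and 11.00 in Chrm1-/-, against 11.16, 11.09 and 11.30 in WT. The Chrm1-/- arrays lay within 0.01 of each other and the nearest WT array was 0.08 above them. The difference was -0.18 ± 0.11 (SE, n = 3 each), and it ran from -0.23 to -0.12 when 1 array was left out, the smallest without WT replicate 3. Equal values on several arrays are common in this table, and the SD of 0.01 among the Chrm1-/- arrays is to be read beside that: 40.0% of tested genes had a value that occurred on 2 or more arrays.

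The outer membrane proteins of fission had slightly higher means in Chrm1-/-, well inside their errors. Fis1, a tail-anchored outer membrane protein, read 7.12, 7.39 and 7.47 in Chrm1-/-, against 7.04, 7.33 and 7.33 in WT. In both genotypes replicate 1 was the lowest, and the difference was 0.09 ± 0.15 (SE, n = 3 each). It was 0.20 without Chrm1-/- replicate 1 and -0.00 without WT replicate 1. Mff, the main receptor that brings Dnm1l to mitochondria, read 9.99, 10.03 and 9.62 in Chrm1-/-, against 9.92, 9.50 and 9.96 in WT. Its groups overlapped almost fully, and the difference was 0.09 ± 0.18 (SE, n = 3 each). Without WT replicate 2 the sign of the Mff difference turned, to -0.06, and without Chrm1-/- replicate 2 that of Opa1 turned, to -0.02.

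**Figure D2:**
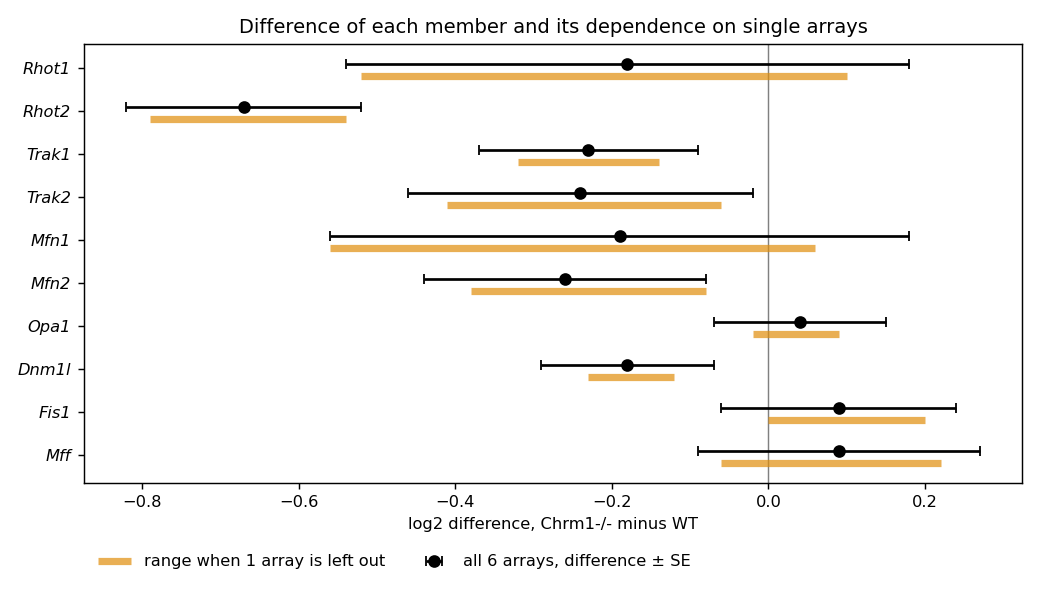
Difference in log2 signal, Chrm1-/- minus WT (horizontal axis), of each member (rows): points with bars are the difference ± SE over all 6 arrays, and thick lines the range of values when 1 array is left out. The line of Rhot2 runs from -0.79 to -0.54, while those of Rhot1, Mfn1, Opa1, Fis1 and Mff reach or cross 0.

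Across the 10 members, 7 had lower and 3 had higher mean signals in Chrm1-/-, and their median difference was -0.18, where 49.3% of all tested genes were lower and the median was 0.00. The median ran from -0.31 without Chrm1-/- replicate 1 to -0.09 without Chrm1-/- replicate 2 or WT replicate 3. The groups did not overlap for 2 of the 10, both lower in Chrm1-/-; over all tested genes the share was 5.79%, with 2.97% lower. The genes were chosen on this contrast, so nothing is read from that count. One member, Rhot2, differed at least 1.5-fold, as did 4.31% of tested genes.

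The spread between arrays of a genotype was near that of genes at large. The median pooled SD of the members was 0.21, against 0.22 over all tested genes, and 5 of the 10 lay above that median. Within the set the spread ran from 0.08 for Dnm1l and Opa1 to 0.54 for Mfn1. Among the 45 pairs of members, with each gene less its mean over the 6 arrays, Trak1 and Dnm1l lay closest, at a mean absolute difference of 0.083, and Mfn1 and Fis1 furthest apart, at 0.552. This measure depends on the size of the spread, so steady genes lie close whatever their direction. Opa1 and Dnm1l lay at 0.109, with differences between genotypes of 0.04 and -0.18.

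**Figure D3:**
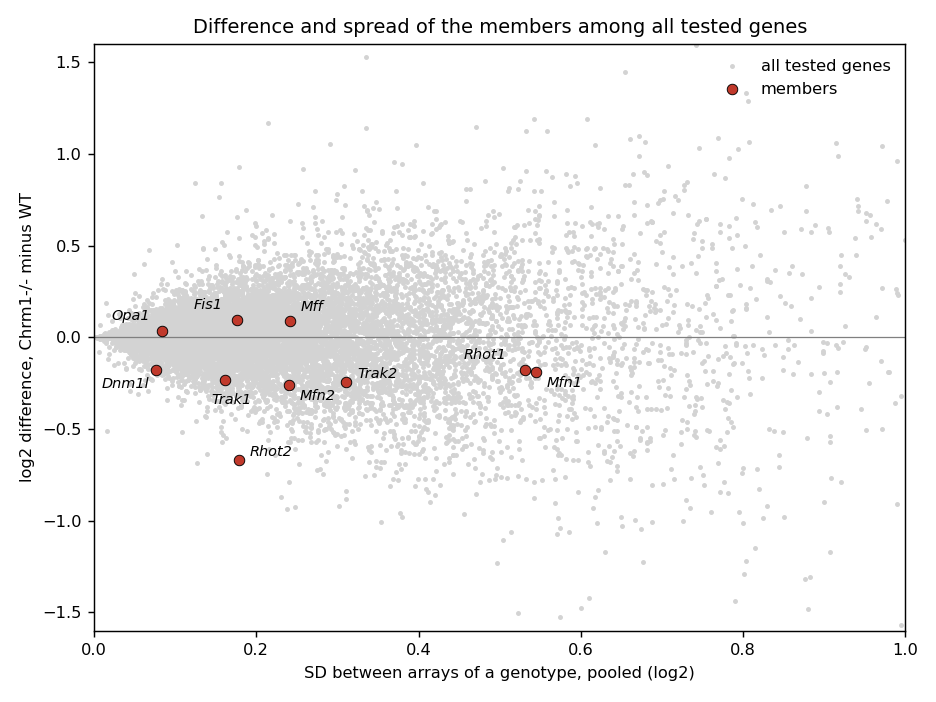
Pooled SD between arrays of a genotype (horizontal axis, log2) and difference, Chrm1-/- minus WT (vertical axis, log2), of the members (red, named) among all tested genes (grey); 142 genes lie outside the plotted range. Rhot2 lies below the other members at a modest spread, and Rhot1 and Mfn1 lie far to the right.

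By the same measure of likeness over the 6 arrays, the genes nearest to Rhot2 among 10111 searched were Wdr11, Mre11a and Arih2. Their mean absolute differences from the Rhot2 profile were 0.087, 0.107 and 0.111. Wdr11, a WD repeat protein gene, read 7.37, 7.89 and 7.95 in Chrm1-/-, against 8.33, 8.50 and 8.21 in WT. Mre11a encodes a nuclease of DNA break repair and differed by -0.45 ± 0.19 (SE, n = 3 each). Arih2 encodes a ubiquitin ligase and differed by -0.61 ± 0.17 (SE, n = 3 each). These genes were picked for their nearness to Rhot2, so their lower values in Chrm1-/- follow from the pick. The likeness rests on 6 arrays and is given as a description only.

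The neighbours of Rhot2 in the RefSeq gene order showed no difference of that size in the same direction. Wdr90, the gene just upstream on the same strand, had a mean below the level for testing and read 6.33, 6.58 and 6.58 in Chrm1-/-, against 6.50, 6.69 and 6.65 in WT, a difference of -0.12. Rhbdl1, a rhomboid family gene on the other side, differed by -0.01 ± 0.12 (SE, n = 3 each). Mcrip2, the gene beyond Wdr90, read higher in Chrm1-/-, at 7.10, 7.10 and 7.03, against 6.71, 6.85 and 6.58 in WT. The difference of Mcrip2 was 0.36 ± 0.11 (SE), with an unadjusted p of 0.0177 and an adjusted p of 0.996 in limma. Mir3082, also among the nearest genes in that order, was not analysed here.

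Of other genes of the mitochondrial network, 119 in 6 lists, 98 were tested; 0 passed the adjusted threshold in limma over all genes, and for 2 the unadjusted p was below 0.05, with the higher mean in Chrm1-/- each time. That is 2.04% of them, against 2.99% of all tested genes. Groups did not overlap for 5.1%, against 5.79%. In all, 44 were lower in Chrm1-/- and 54 higher or equal, with equal means for Stoml2 and Map1lc3a. The median difference of the listed genes was 0.01, where that of all tested genes was 0.00. Centring each array on its median left 0 of the listed genes below that unadjusted level.

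Genes that regulate fission had 9 of 12 tested members lower, 3 higher, a median difference of -0.13 and 0 with an unadjusted p under 0.05 in limma. Mtfr1l, a mitochondrial fission regulator gene, differed by -0.56 ± 0.38 (SE), with 7.70, 8.71 and 8.53 in Chrm1-/-, against 9.20, 9.23 and 8.18 in WT. Dnm2, a dynamin of membrane scission, differed by -0.22 ± 0.14 (SE). Slc25a46, an outer membrane protein gene of the carrier family, went the other way at 0.55 ± 0.27 (SE).

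Genes of fusion and of the inner membrane had 13 of 20 tested members higher or equal, 7 lower, a median of 0.05 and 0 with an unadjusted p under 0.05. Stoml2, counted among the 13, had equal means in both genotypes. Miga1, which promotes fusion at the outer membrane, differed by 0.46 ± 0.22 (SE). Chchd6, a subunit of the complex that holds cristae junctions, differed by -0.39 ± 0.19 (SE), and Spg7, a subunit of an inner membrane protease, by 0.25 ± 0.15 (SE). Chchd3, of the same complex as Chchd6, was the member of this list whose groups did not overlap, at 0.10 ± 0.10 (SE), and is named after its values were seen.

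Motors and anchors of transport, the partners of the Miro and Trak proteins, had 10 of 17 tested members higher, 7 lower and a median of 0.06. Armcx3, an outer membrane protein that binds Miro and Trak in mouse neurons, read 7.92, 7.89 and 8.23 in Chrm1-/-, against 7.75, 7.63 and 7.70 in WT. All Chrm1-/- arrays lay above all WT arrays, and the difference of 0.32 ± 0.13 (SE) had an unadjusted p of 0.0482 and an adjusted p of 0.996 in limma. Myo19, an actin motor of mitochondria, also did not overlap, at 7.94, 7.99 and 7.84 in Chrm1-/-, against 7.77, 7.76 and 7.69 in WT. Cluh, an RNA-binding protein gene needed for the even placement of mitochondria, differed by 0.44 ± 0.27 (SE), with its lowest value on WT replicate 1.

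Mitophagy genes had 12 of 16 tested members higher or equal, 4 lower, a median of 0.08 and 0 with an unadjusted p under 0.05. Map1lc3a, counted among the 12, had equal means in both genotypes. Gabarap and Gabarapl1, ubiquitin-like proteins of autophagosomes, differed by 0.19 ± 0.14 (SE) and 0.41 ± 0.39 (SE), and Tomm7, a subunit of the import pore that steadies the kinase Pink1, by 0.41 ± 0.32 (SE). Genes of contact with the endoplasmic reticulum and of calcium uptake had 8 of 12 lower, 4 higher and a median of -0.01. The smallest p among these was that of Vdac3, an outer membrane channel gene, at -0.24 ± 0.19 (SE), followed by Vdac1 at -0.16 ± 0.15 (SE) and Micu2, a gatekeeper of the calcium uniporter, at -0.15 ± 0.16 (SE).

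Genes of mitochondrial mass and biogenesis had 12 of 21 tested members higher, 9 lower and a median of 0.05. Nrf1, a transcription factor for nuclear genes of the organelle, read 7.83, 7.93 and 8.19 in Chrm1-/-, against 7.66, 7.70 and 7.66 in WT. Its groups did not overlap, and the difference of 0.31 ± 0.13 (SE) had an unadjusted p of 0.0491 and an adjusted p of 0.996 in limma. Ppargc1b, a coactivator of biogenesis genes, differed by 0.22 ± 0.12 (SE). Timm23, the channel of the inner membrane import complex, read 11.32, 11.25 and 11.35 in Chrm1-/-, against 11.45, 11.47 and 11.50 in WT, without overlap.

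**Figure D4:**
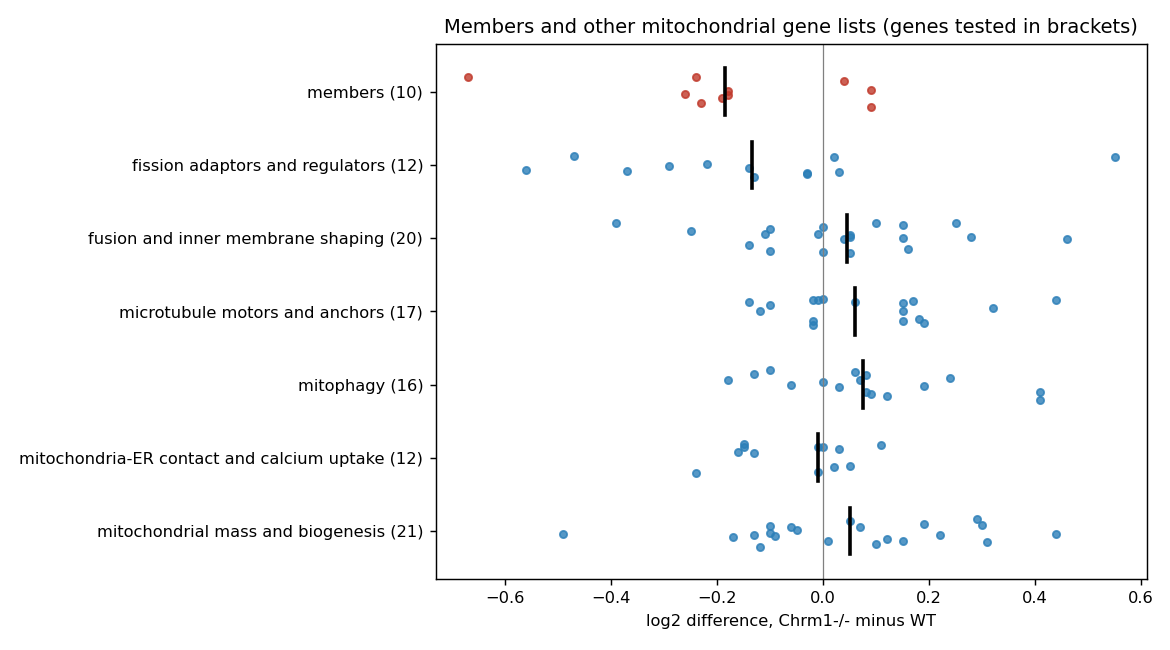
Difference in log2 signal, Chrm1-/- minus WT (horizontal axis), of the members (red) and of the tested genes of 6 other mitochondrial lists (blue); each point is a gene, vertical scatter within a row has no meaning, and black bars are medians. The median of the members is -0.18, and those of the lists run from -0.13 to 0.08.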

How the data were processed

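The deposited table holds 1 log2 signal per row and array, rounded to 2 decimals, for 6 arrays; the scale is taken from its range, 3.02 to 13.67, since no header names it. Per the series design text, RNA was amplified with a NuGEN kit, hybridised to Affymetrix mouse gene ST arrays and processed by the authors in the Affymetrix analysis software; neither its version nor its normalization is given in the sources used here. The values were used without further normalization.

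The platform annotation gave 1 symbol to 23521 of 41345 rows, several to 1814 and none to 16010, and the rows without a single symbol were left out. For the 1082 genes with more than 1 row, the row of highest mean was kept, which gave 22180 genes. The 11094 genes with a mean at or above the median were fitted with limma 3.58.1 in R 4.3.3 (lmFit and eBayes, Chrm1-/- minus WT, two-sided, Benjamini-Hochberg adjustment over all of them, threshold 0.05); standard errors are limma's. Members and lists were chosen with earlier results of these data known. Named are all members, Chrm1, in each list the 3 genes of smallest p and any under 0.05, the 3 profiles nearest to Rhot2 (predicted genes, unnamed clones, receptor and antibody families and small RNAs left out) and its nearest neighbours. Of 119 listed genes, 110 had a row of their own.

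The RefSeq promoter table (GRCm38.p6, 250 bases before each start) matched 10 members by symbol. Since the annotation of the array names no build, no other coordinates are printed. Alternatives changed the signal filter, the normalization (quantile, median centring), the row of a gene, the moderation, the array weights, the replicate block, and left out each array. The fit was tested on simulated data. Tables were joined in pandas 2.3.3 (Python 3.11.15) and plots drawn with matplotlib 3.10.9. The number of arrays limits the precision; the median standard error was 0.17.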

Additional observations from a re-analysis of the deposited data

How the results depend on the processing

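Signal filters, the mean of all rows and the replicate block cannot move a member's mean difference here, and with quantile normalization, median centring or array weights that of Rhot2 lay between -0.68 and -0.66. Array weights took Mfn1 to -0.43 and Mff to 0.17. Leaving out 1 array gave median member differences from -0.31 to -0.09, and 2 to 4 members without overlap. Rhot2 and Dnm1l could not be lost this way, since groups already apart stay apart with fewer arrays; the added ones were Trak2 and Fis1 without Chrm1-/- replicate 1, Trak1 and Mff without Chrm1-/- replicate 3, and Mfn2 without WT replicate 2; with 1 array left out, 13.1% to 17.7% of all tested genes did not overlap. The number of genes past the adjusted threshold in limma was 0 in all 8 alternatives with every array, and 0 to 1 on leaving out 1 array (Snord49a without Chrm1-/- replicate 3, Gdpd3 without WT replicate 1). In the main limma fit, Armcx3 and Nrf1 were the 2 listed genes below the unadjusted level of 0.05. Median centring left 0, and so did the filter at the 75th percentile, which tested 65 listed genes, against 98. An intensity trend and robust moderation gave 1, but that gene was Timm23, lower in Chrm1-/-. The mean of all rows gave 3, with Mul1 added. Leaving out 1 array gave 0 to 5, mostly other genes. Examples are Chchd6 and Miga1 without Chrm1-/- replicate 2, and Mtfr1l without WT replicate 3. Replicate numbers are shared by the groups, but the deviations of same-numbered arrays correlated at -0.03, 0.04 and -0.02, and 1 of the 3 Chrm1-/- arrays correlated best with its own number. With the replicate block the member median was -0.18, as it must be in a balanced design, 0 genes passed, and 2 listed genes were under 0.05, Slc25a46 and Miga1 in place of Armcx3 and Nrf1.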

Other observations

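Equal values on several arrays are frequent in the deposited table. Over all pairs of arrays and tested genes, 4.64% of values were equal to 2 decimals, while 2.81% differed by 0.01 in either direction. A value occurred on 2 or more arrays for 40.0% of tested genes and on 3 or more for 9.74%. Of the members, 5 had a value on 2 arrays (Trak2, Mfn2, Opa1, Dnm1l and Fis1) and 0 had one on 3. Standard deviations within a genotype, such as 0.01 for Dnm1l on the Chrm1-/- arrays, include these equal values.

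The granulocyte precursor markers read, as a mean log2 signal over 10 genes, 7.44, 7.10 and 7.26 in Chrm1-/-, against 7.39, 7.45 and 7.53 in WT, so the groups overlapped through Chrm1-/- replicate 1. The groups of each of the 10 genes overlapped, and 5 were above the signal level for testing. Camp differed by 0.21 and Ltf by 0.04, while the others had lower means in Chrm1-/-. Ms4a3 read 7.55, 6.37 and 7.55 in Chrm1-/-, against 7.55, 7.52 and 7.55 in WT. Of the HSC markers other than Procr, Slamf1, a surface receptor used to purify HSCs, read 7.18, 7.02 and 8.44 in Chrm1-/-, against 8.04, 7.87 and 7.86 in WT, with Chrm1-/- replicate 3 apart from the other knockout arrays. Slamf1 is named after its values were seen. Its difference was -0.38 with overlapping groups, while Fgd5 of the same list differed by 0.38, also with overlap.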
